A study of Homo sapiens with 4 samples.

Results

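Expression of 9 genes of the complement system, C3, C1R, C1S, CFB, CFI, SERPING1, CD46, CD55 and CD59, was examined in ovarian cancer cells with forced TET1 expression. They were taken by name from the 26506 gene symbols measured, and all 9 were present. C3 was picked because its RNA was much lower after TET1 expression in both cell lines, so its own change is given as a description and supports nothing further. The same measurements were read for the other 8 genes, which belong to the same cascade.

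Complement is a set of plasma and membrane proteins that marks and lyses target cells. It is started by the classical pathway, in which C1q carries the proteases C1r and C1s, by the lectin pathway, or by the alternative pathway, and all of them lead to the cleavage of C3. In the alternative pathway, factor B (CFB) joins C3b, the large fragment of C3, to form the enzyme that cleaves more C3. C1 inhibitor (SERPING1) blocks C1r and C1s, factor I (CFI) cuts C3b with the help of cofactors such as CD46, CD55 speeds the decay of the C3-cleaving enzymes, and CD59 blocks the membrane attack complex. Liver makes most of the plasma proteins, while many epithelial and tumour cells also transcribe C3 and carry the membrane regulators.

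The study asked what TET1, a dioxygenase that oxidises 5-methylcytosine in DNA, does to established ovarian cancer cell lines. HeyC2 and SKOV3 cells received 3 μg of a pCMV6 plasmid carrying TET1 or of the empty plasmid by lipofection, and all cells were then selected and grown in 400 μg/ml Geneticin. Total RNA was sequenced as 1 library for each of 4 conditions: HeyC2 control (labelled wild-type), HeyC2 TET1 (TET1 overexpressed), SKOV3 control and SKOV3 TET1. The controls therefore carried the vector and the selection as well, the transgene was driven by the vector's strong viral promoter, and whether the selected cells were a pool or a clone was not given in the sources used here.

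With 1 library per condition there was no replicate error and no test between conditions. Levels are given as transcripts per 1000000 transcripts (TPM), which allow for gene length, so genes can be compared within a library. The 2 cell lines were deposited as separately normalised tables, which holds for every level set across lines below. Changes are log2 values of TET1 against control after adding 1 TPM to both, minus the median over all genes of that line with a mean of at least 1 TPM. That all-gene median was 0.01 in HeyC2 over 12867 genes and 0.28 in SKOV3 over 14177 genes. A gene is described as lower or higher when it lay at least 1.5-fold from that median. Relative ratios and folds use TPM without the added 1 TPM, but the median removed from them is the same one. Intervals are exact 95% intervals on estimated fragment counts and cover counting error only, not variation between cultures.

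TET1 RNA itself was 0.414 TPM in HeyC2 control and 1.03 TPM in HeyC2 TET1, and 0.909 and 3.95 TPM in the SKOV3 pair. In HeyC2 TET1 did not pass the filter, and its relative ratio was 2.465 (1.34 to 5.17, from an estimated 14 and 34 fragments). In SKOV3 the relative ratio was 3.57 (2.41 to 5.62, from an estimated 30 and 114 fragments). The estimated depth was 6740000 to 7700000 fragments per library, and 15162 to 16941 genes were above 0. Keratin genes KRT8 and KRT18, which mark epithelial cells, and PAX8, a marker of Müllerian epithelium, were above 150 TPM in all 4 libraries, whereas EPCAM was under 1 TPM and CDH1 was at 0 in both HeyC2 libraries. The other ovarian or Müllerian markers read did not follow PAX8. MSLN was 96.5 and 153.3 TPM in HeyC2 (change 0.655) but 21.8 and 0.179 TPM in SKOV3 (change -4.55). WT1 did not exceed 1.16 TPM in any library, and MUC16 did not exceed 0.106 TPM. The SKOV3 TET1 library differed from its control in other epithelial genes: KRT7 was 3251 TPM in the control and 48.2 TPM after TET1, and KRT19 was 539.5 and 1.01 TPM, whereas CDH1 was higher, at 4.74 and 13.8 TPM (change 1.09), and EPCAM was 32.5 and 35.3 TPM. In HeyC2 KRT7 (change 1.88) and KRT19 (change 0.85, at 1.28 and 3.14 TPM) were higher. In SKOV3 the summed level of 6 fibroblast genes was 2.35 TPM in the control and 77.7 TPM after TET1. Of the sum after TET1, COL1A1 gave 60.7 TPM, and DCN was at 0. The 3 that passed the filter, COL1A1, COL1A2 and LUM, were higher, against 23.6% of all SKOV3 genes tested. COL1A1 and COL1A2 were under 1 TPM in the control and passed only through the TET1 library, so nothing is read from this count. In HeyC2 the summed level of 3 endothelial genes was 40.1 and 187.5 TPM, nearly all of it CDH5, and that of 5 leukocyte genes was 119.9 and 185.2 TPM, nearly all of it CD68, while the leukocyte marker PTPRC was under 1 TPM in every library. Their part in the results below was not tested.

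Of the 9 genes, 5 passed the filter in HeyC2 (C3, C1S, CD46, CD55 and CD59), and 2 of them, C3 and C1S, were lower and 0 were higher after TET1. Among all HeyC2 genes tested, 11.0% were lower and 14.9% were higher. In SKOV3 all 9 passed the filter, although SERPING1 did so only through its TET1 library. There 3 were lower (C3, C1S and CD55), 3 were higher (CFB, CFI and SERPING1) and 3 were neither, against a background of 20.2% lower and 23.6% higher. C3 and C1S were lower in both lines, and 3.03% of the 12160 genes tested in both were. Nothing is read from that share, since C3 was picked for this pattern and C1S passed the HeyC2 filter only through its control library. The HeyC2 count was 1, with C1S not passing the filter, on the FPKM scale as deposited or at a mean of at least 5 TPM. None of the 5 genes tested in both lines was higher in each (4.7% of all genes were), higher in HeyC2 and lower in SKOV3 (2.32%) or the reverse (2.11%). The median change of the genes that passed was -0.21 in HeyC2 and 0.06 in SKOV3, on a scale where the median of all genes is 0.

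**Figure D1:**
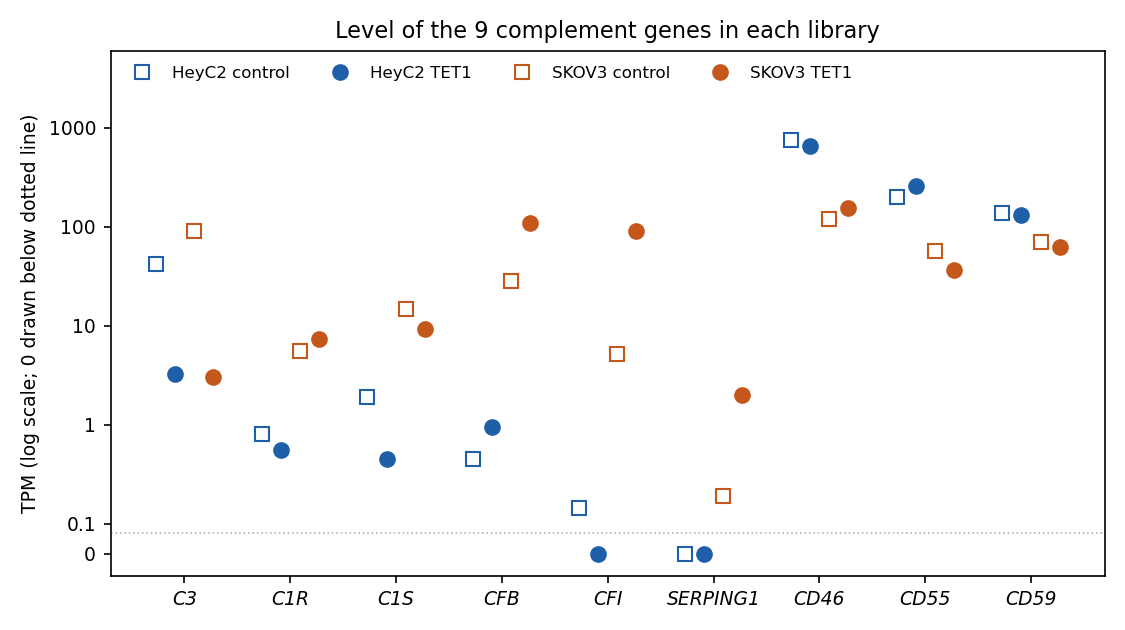
Level of each of the 9 complement genes in each of the 4 libraries, in TPM on a log axis, with open squares for controls, filled circles for TET1 libraries, blue for HeyC2 and orange for SKOV3, and values of 0 drawn below the dotted line. C3 sits at 42.2 and 89.9 TPM in the controls and near 3 TPM in both TET1 libraries, CD46 is the highest gene in every library, and CFB and CFI are near or under 1 TPM in HeyC2 but reach 108.1 and 90.2 TPM in SKOV3 TET1.

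C3, the protein on which all complement pathways converge, was measured at 42.2 TPM in HeyC2 control and 3.28 TPM in HeyC2 TET1. In SKOV3 it was 89.9 TPM in the control and 3.05 TPM after TET1. The 2 controls thus differed 2.13-fold, with SKOV3 higher, while the 2 TET1 libraries lay close to each other. In such bulk RNA, fewer cells that express a gene and less of its RNA per cell cannot be told apart. Relative to the all-gene median, C3 was 12.9-fold lower in HeyC2 (95% counting interval 9.86 to 17.1, from an estimated 788 and 58 fragments). In SKOV3 it was 35.8-fold lower (26.9 to 49.1, from an estimated 1603 and 47 fragments). With 1 TPM added the log2 changes were -3.34 and -4.77. In each line 7 tested genes were lower still, and among the genes tested in both lines 2 were lower than C3 in HeyC2, 4 in SKOV3 and 0 in both.

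The C3 gene has 41 exons in the annotated transcript and lies on the minus strand of chromosome 19 at 6677715 to 6730573 (GRCh37). It shares 649 bases with GPR108 on the same strand, whose changes were -0.19 and 0.52. The 50 tested genes around C3 had a median change of -0.07 in HeyC2 and -0.31 in SKOV3, smaller in size than the change of C3 in each line. C3 stood at the 76.1st percentile of the detected genes in HeyC2 control and the 86.5th in SKOV3 control, and at the 28.7th and 24.4th after TET1. Among the 6 secreted proteins of the group, C3 supplied 92.7% of the summed TPM in HeyC2 control and 62.7% in HeyC2 TET1. Its share of that sum was 62.3% in SKOV3 control and 1.39% in SKOV3 TET1.

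The proteases that start the classical pathway were below C3 in level in both controls and in HeyC2 TET1, but above it in SKOV3 TET1. C1S was 1.91 TPM in HeyC2 control and 0.452 TPM in HeyC2 TET1, an estimated 18 and 4 fragments. It reached 14.8 TPM in SKOV3 control and 9.2 TPM in SKOV3 TET1, an estimated 129 and 70 fragments. The control level was therefore 7.75-fold higher in SKOV3 than in HeyC2, and TET1 libraries were lower in both lines. Relative to the all-gene median C1S was 4.24-fold lower in HeyC2 (1.41 to 17.3) and 1.95-fold lower in SKOV3 (1.45 to 2.66), with log2 changes of -1.01 and -0.91 after adding 1 TPM.

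C1R, the protease that activates C1s, was 0.808 TPM in HeyC2 control and 0.556 TPM in HeyC2 TET1 and was not tested there, with an estimated 6 and 4 fragments. In SKOV3 it was 5.54 TPM in the control and 7.39 TPM after TET1, a relative ratio of 1.1 (0.684 to 1.73). C1R and C1S thus lay on different sides of the SKOV3 median, and the interval of C1R included a ratio of 1.

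C1R and C1S lie side by side on chromosome 12, at 7187513 to 7245203 on the minus strand and 7096351 to 7178336 on the plus strand (GRCh37). C1R shares 3021 bases with C1RL on the same strand, and C1S shares 29431 bases with LPCAT3 on the opposite strand, at 72.3 and 45.6 TPM in HeyC2 and 37.8 and 38.7 TPM in SKOV3. Shared bases were counted over whole gene spans, introns included, and overlap of exons was not measured. The library kit was not stated to keep the strand, and whether reads of C1S and LPCAT3 were mixed was not tested. The lower value of C1S in HeyC2 was shared by its chromosomal surroundings. Of the 50 tested genes around C1S, 43 lay below the all-gene median in HeyC2 and their median change was -0.73, whereas in SKOV3 21 lay below it and the median was 0.13. Within 6 Mb on either side, a reach chosen after the values were seen, 84 of 101 tested genes lay below the median in HeyC2 (median -0.80) and 45 of 91 in SKOV3 (median 0.01).

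The same region also differed between the controls. Around C1S the median log2 level in HeyC2 control was 1.09 above that in SKOV3 control, while C1S itself was 2.13 lower and C1R 1.54 lower on that scale. Just outside the C1S window lies GAPDH, the gene used by the authors to scale the libraries, which had a level of 11227 TPM in HeyC2 control and 3311 TPM in HeyC2 TET1.

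**Figure D2:**
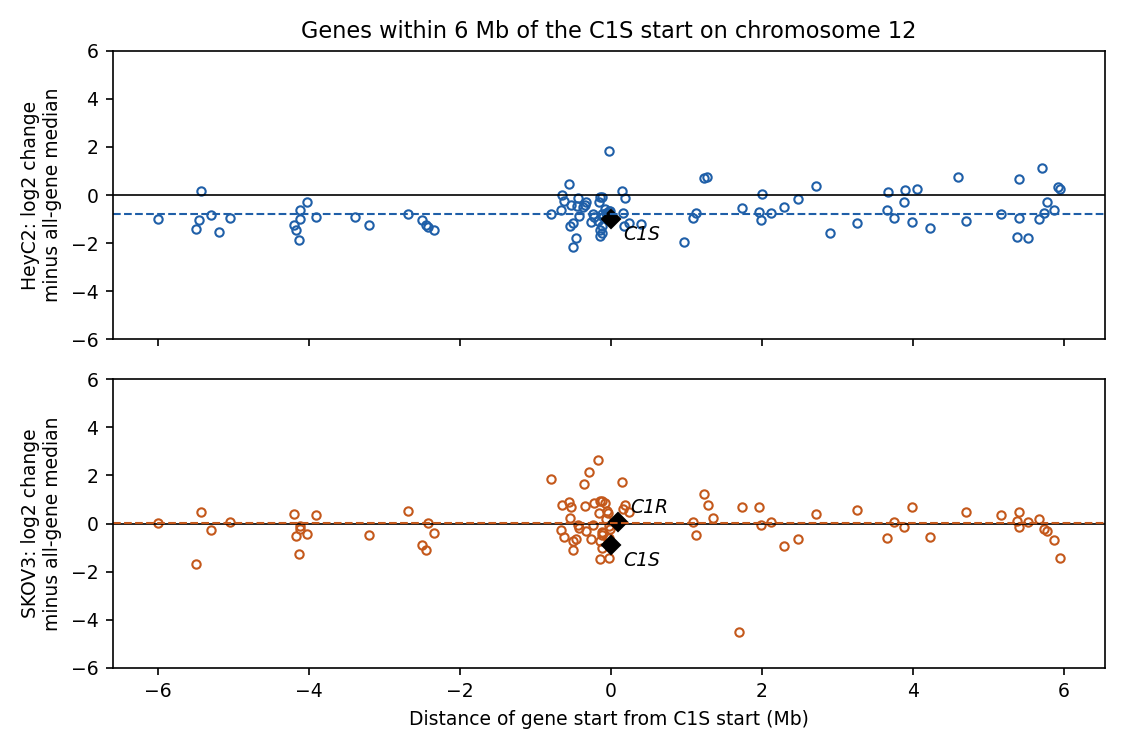
Log2 change (TET1 against control, minus the all-gene median) of each tested gene within 6 Mb of the C1S start on chromosome 12, plotted against distance in Mb, with HeyC2 above and SKOV3 below, C1R and C1S as black diamonds and a dashed line at the median of the plotted genes. In HeyC2 84 of 101 genes lie below 0, and in SKOV3 45 of 91 do. C1R is not drawn in HeyC2, where it did not pass the filter.

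CFB and CFI, an activating protease and an inhibitory protease of the C3 step, were both near the detection limit in HeyC2 and both higher after TET1 in SKOV3. CFB was 0.456 and 0.947 TPM in HeyC2, an estimated 4 and 8 fragments. SKOV3 had 28.6 TPM in the control and 108.1 TPM after TET1, from 228 and 755 estimated fragments. Relative to the all-gene median this was 3.11-fold higher (2.68 to 3.62), a log2 change of 1.6. The controls differed 62.8-fold, with SKOV3 higher.

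CFI was 0.145 TPM in HeyC2 control, an estimated 1 fragment, and was at 0 in HeyC2 TET1, where a count of 0 allows up to 0.481 TPM (3 fragments). SKOV3 had 5.24 TPM in the control and 90.2 TPM after TET1, from 32 and 493 estimated fragments. The relative ratio was 14.2 (10.05 to 21.2) and the log2 change 3.59, the largest in size of the 9 genes after C3. CFI moved from the eighth to the third place among the 9 in SKOV3, and C3 from the second to the eighth.

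CFB lies on chromosome 6 at 31913427 to 31919863 (plus strand, 18 exons) and CFI on chromosome 4 at 110652164 to 110723306 (minus strand, 13 exons), both on GRCh37. CFB shares 24 bases with C2 on the same strand. Neither surrounding region moved with its gene in SKOV3, with window medians of 0.05 around CFB and -0.42 around CFI.

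The 250 bases upstream of the start were available from RefSeq (GRCh38.p14) for 6 of the 9 genes: C1R, CFB, CFI, CD46, CD55 and CD59. C3, C1S and SERPING1 are named only. RefSeq listed 2 starts for C1R, 2 for CD46 and 4 for CD59, and the most upstream was used. Which start these cells use was not measured. The sequences of CFB and CFI are shown because these genes were higher together in SKOV3, and they are written 5′ to 3′ on the gene's strand with capitals for motif matches. The CFB window is chr6:31945845-31946094 (plus strand) and the CFI window is chr4:109802000-109802249 (minus strand).
CFB: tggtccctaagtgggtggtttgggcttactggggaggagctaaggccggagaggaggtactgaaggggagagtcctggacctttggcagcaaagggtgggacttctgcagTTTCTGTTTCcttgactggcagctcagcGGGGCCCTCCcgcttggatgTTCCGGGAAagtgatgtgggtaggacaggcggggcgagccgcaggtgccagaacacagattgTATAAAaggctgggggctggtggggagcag
CFI: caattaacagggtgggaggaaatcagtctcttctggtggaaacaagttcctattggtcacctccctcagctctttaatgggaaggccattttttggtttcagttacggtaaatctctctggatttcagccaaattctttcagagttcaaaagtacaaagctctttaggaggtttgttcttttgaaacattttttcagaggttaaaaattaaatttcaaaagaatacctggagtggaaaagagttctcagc

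Both strands were searched for the TATA box TATAAA, the Sp1 box GGGCGG, an NF-kB consensus, the C/EBP motif TTGCNNAA, the STAT motif TTCNNNGAA and the interferon-stimulated response element (ISRE) consensus. The capitals in CFB mark, in order, an ISRE match 140 bases before the start, an NF-kB consensus match at 112, a STAT match at 92 and the TATA box at 30. These motifs occur in 3.02%, 9.96%, 6.57% and 10.7% of the 35116 RefSeq windows of this length. CFI held no match to any of the 6 motifs in this window. The windows also differed in CG dinucleotides, the sites that TET enzymes can act on when methylated: CFB held 7 and CFI 1, against a median of 11 over all windows. Methylation was not measured here, and a match is a description of letters only.

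SERPING1, the inhibitor of C1r and C1s, was at 0 in both HeyC2 libraries, where 0 allows up to 0.495 TPM in the control and 0.525 TPM after TET1. In SKOV3 it was 0.19 TPM in the control and 1.99 TPM after TET1, an estimated 1 and 10 fragments. The relative ratio was 8.61 with an interval of 1.32 to 403.7, so the size of this change was not resolved at this depth.

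The 3 membrane regulators were the most abundant genes of the group in HeyC2. Together they made up 96.0% of the summed TPM of the 9 genes in HeyC2 control and 99.5% in HeyC2 TET1, but 63.3% and 53.5% in the SKOV3 pair. CD46, the cofactor with which CFI cuts C3b on the cell's own surface, was 752.8 TPM in HeyC2 control and 653.0 TPM in HeyC2 TET1. It was 121.1 TPM in SKOV3 control and 154.1 TPM in SKOV3 TET1. It was first of the 9 genes in all 4 libraries, and its relative ratios were 0.863 (0.836 to 0.89) in HeyC2 and 1.05 (0.972 to 1.13) in SKOV3, within 1.5-fold in both lines.

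CD55 was 200.1 TPM in HeyC2 control and 259.3 TPM in HeyC2 TET1. The SKOV3 level was 57.2 TPM in the control and 36.7 TPM after TET1. Its relative ratio was 1.29 (1.21 to 1.37) in HeyC2, under 1.5-fold, and in SKOV3 it was 1.89-fold lower (1.63 to 2.21). The counting intervals of the 2 lines lay on opposite sides of 1, which does not test a difference between lines, since each ratio came from 1 pair of libraries.

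CD59 was 139.5 TPM in HeyC2 control and 131.0 TPM in HeyC2 TET1, with 70.8 and 62.4 TPM in SKOV3. Its relative ratios were 0.934 and 0.726 (0.677 to 0.778 in SKOV3), within 1.5-fold in both lines. The HeyC2 change of -0.10 turned to 0.05 on the FPKM scale as deposited. In the controls all 3 regulators were higher in HeyC2, by 6.21-fold for CD46, 3.5-fold for CD55 and 1.97-fold for CD59, the reverse of the 5 secreted genes detected in both controls.

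**Figure D3:**
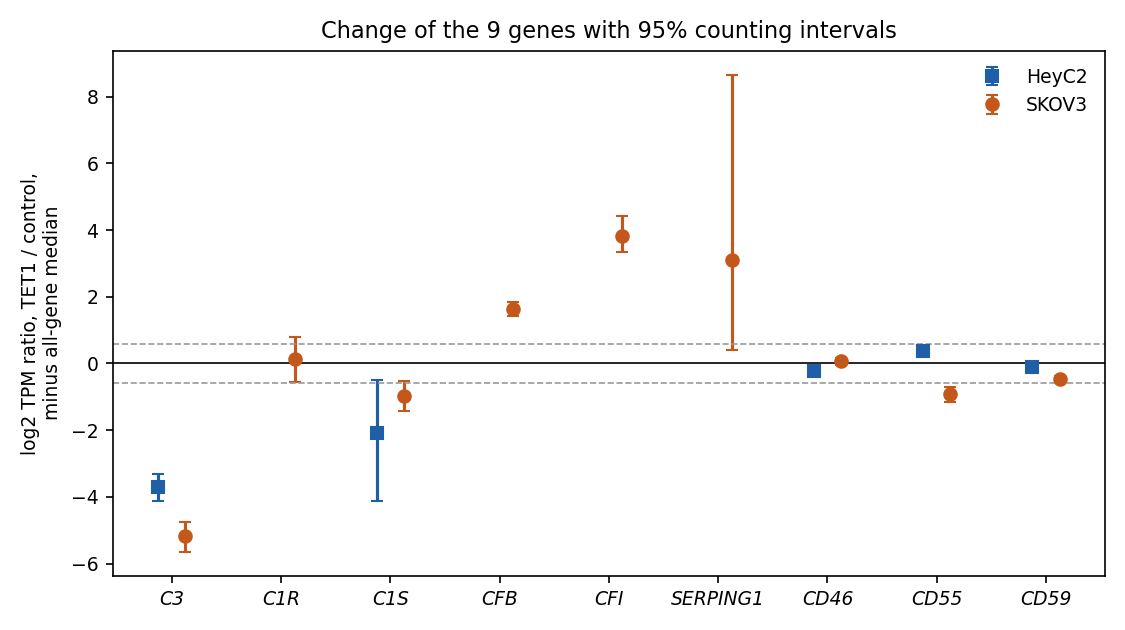
Log2 of the TPM ratio (TET1 over control, no pseudocount) minus the all-gene median (taken with 1 TPM added) for the genes that passed the filter, with blue squares for HeyC2, orange circles for SKOV3, bars for 95% counting intervals and dashed lines at 1.5-fold. C3 lies lowest in both lines, CFI highest in SKOV3, and SERPING1, with 1 and 10 estimated fragments, has the widest bar.

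CD46 and CD55 lie in the regulator cluster of chromosome 1, at 207925382 to 207968858 and 207494864 to 207560149 (GRCh37, plus strand). The complement receptor genes CR2 and CR1 lie between them. CD59 is on chromosome 11 at 33724556 to 33758025 (minus strand). The 50 tested genes around CD46 had a median change of 0.05 in both lines, as close to 0 as those around CD55, at 0.04 and 0.06. Between the controls the neighbourhood of both genes was 0.37 higher in HeyC2 on the log2 scale, against 2.94 for CD46 and 2.10 for CD55. The upstream windows of CD46 and CD55 are shown because the genes lie in 1 cluster and yet lay differently in SKOV3, with CD46 near the median and CD55 below it. These windows are chr1:207751788-207752037 and chr1:207321428-207321677 (GRCh38.p14, RefSeq, plus strand), with capitals for Sp1 boxes on the opposite strand.
CD46: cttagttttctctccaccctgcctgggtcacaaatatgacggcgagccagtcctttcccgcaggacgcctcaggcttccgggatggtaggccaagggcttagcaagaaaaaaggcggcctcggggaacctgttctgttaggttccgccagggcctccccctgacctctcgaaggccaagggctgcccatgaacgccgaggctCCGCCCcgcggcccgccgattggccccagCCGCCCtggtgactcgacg
CD55: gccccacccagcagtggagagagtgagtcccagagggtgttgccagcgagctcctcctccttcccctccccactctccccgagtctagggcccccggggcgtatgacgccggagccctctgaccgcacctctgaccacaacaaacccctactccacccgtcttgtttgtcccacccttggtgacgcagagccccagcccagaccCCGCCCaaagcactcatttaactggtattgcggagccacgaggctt

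CD46 held 2 Sp1 boxes, 48 and 19 bases before the start, and CD55 held 1 at 46, a motif found in 42.6% of all windows. Neither held a TATA box or a match to the other 4 motifs. CD46 held 19 CG dinucleotides, a number reached by 34.7% of all windows, and CD55 held 12. Among the remaining windows, C1R held a C/EBP match 106 bases before the start and 6 CG dinucleotides, and CD59 a STAT match at 128 and 12 CG dinucleotides.

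The rest of the cascade was read from a list of 58 complement genes in 6 roles. Of these 19 were at 0 in all 4 libraries, among them the C1q genes C1QA, C1QB and C1QC, and of the 6 terminal components, which build the membrane attack complex, 5 were at 0 in all libraries and none passed the filter. Without the 9 genes, 7 of the list passed in HeyC2 with 0 lower and 0 higher, and 11 passed in SKOV3 with 1 lower and 6 higher, where 20.2% of all SKOV3 genes tested were lower and 23.6% higher. The median change of these genes was -0.21 in HeyC2 and 0.80 in SKOV3. Of the 11, SUSD4, C5AR1 and C5 were under 1 TPM in SKOV3 control and passed only through the TET1 library. SUSD4 and C5AR1 are among the 6 higher. ITGB2, the 1 lower, was under 1 TPM after TET1 and passed only through the control. Nothing is therefore read from either SKOV3 count or from the SKOV3 median. The 58 genes together gave 12 tested, 2 lower and 0 higher in HeyC2, and 20 tested, 4 lower and 9 higher in SKOV3. Those 9 include SERPING1, SUSD4 and C5AR1, with the same limit. The lower genes include ITGB2 in SKOV3 and C1S in HeyC2, each of which passed only through the control, so nothing is read from these counts.

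Fluid-phase regulators that passed the filter in SKOV3 numbered 3, and all 3 were higher, against 23.6% of all SKOV3 genes tested. SERPING1 passed only through its TET1 library, so nothing is read from this count. Besides CFI and SERPING1 the third was clusterin (CLU), which binds terminal complexes. CLU was 1.76 and 1.41 TPM in HeyC2 and 13.96 and 40.9 TPM in SKOV3, with changes of -0.21 and 1.21. It thus did not pass 1.5-fold in HeyC2.

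Among the other roles, SUSD4, a membrane inhibitor of complement, was 0.93 TPM in SKOV3 control and 24.7 TPM after TET1 (change 3.45). C1RL, a C1r-like protease that overlaps C1R, changed by 0.16 in HeyC2 and 1.74 in SKOV3, and MASP2, a lectin-pathway protease, by 0.80 in SKOV3. C4A changed by 1.26 in SKOV3, but it is nearly identical to C4B, so how reads were shared between them is uncertain. C5AR1, the receptor of the C5 fragment C5a, was 0.952 TPM in SKOV3 control and 5.15 TPM after TET1 (change 1.38). The one other gene that was lower there was ITGB2, the integrin beta chain of complement receptors 3 and 4, at 19.6 and 0.489 TPM (change -4.07), whereas in HeyC2 it was 38.9 and 32.6 TPM (change -0.25). CFD, the protease that activates factor B, was 6.42 and 5.2 TPM in HeyC2 and 50.6 and 84.0 TPM in SKOV3, with changes of -0.27 and 0.44. C2, C5 and C1QBP in SKOV3 and ITGAX and C1QBP in HeyC2 also stayed within 1.5-fold, at 0.55, 0.52, 0.13, 0.50 and -0.25.

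**Figure D4:**
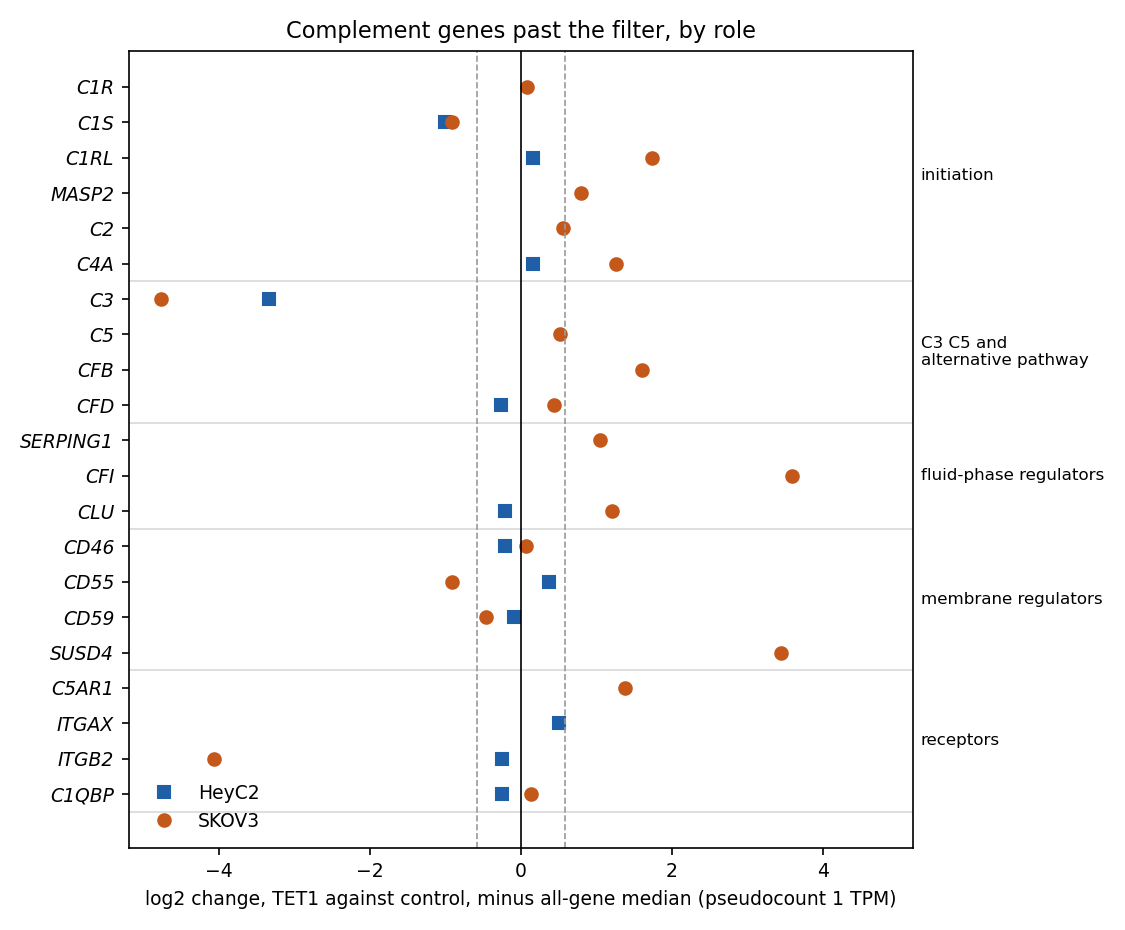
Log2 change (TET1 against control with 1 TPM added, minus the all-gene median) of each gene of the 58-gene complement list that passed the filter, grouped by role, with blue squares for HeyC2, orange circles for SKOV3 and dashed lines at 1.5-fold. In HeyC2 C3 and C1S alone lie beyond the lines, and in SKOV3 4 genes lie below and 9 above them. Of those 9, SERPING1, SUSD4 and C5AR1 passed the filter only through the TET1 library. Among the lower genes, ITGB2 in SKOV3 and C1S in HeyC2 passed only through the control.

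C3 and CFB are known targets of inflammatory signalling through NF-kB, C/EBP and STAT factors in liver and epithelial cells. A list of 23 genes of such signalling and a list of 17 acute-phase genes were therefore read as well. The 23 are called inducers below, although they include inhibitors such as NFKBIA, which counts as higher in HeyC2 and lower in SKOV3. Of the inducers 7 of 21 tested were lower and 3 higher in HeyC2, and 8 of 23 were lower and 4 higher in SKOV3. The shares over all genes tested were 11.0% lower and 14.9% higher in HeyC2, 20.2% and 23.6% in SKOV3, and 3.03% lower in both lines. In SKOV3 IL1B and TNF were under 1 TPM after TET1 and passed the filter only through the control. Nothing is therefore read from the SKOV3 lower count or from the number lower in both lines. Those inducers lower in both lines were NFKB2 (-0.60 and -0.60), IL1B (-1.57 and -2.46), IL6 (-0.96 and -1.60) and LIF (-0.65 and -0.72), of which the last 3 encode cytokines. IL1B was 2635 TPM in HeyC2 control and 894.1 TPM after TET1, but 5.84 and 0.506 TPM in SKOV3, an estimated 26 and 2 fragments. None of the inducers was higher in both lines.

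The transcription factor genes did not move in one direction. In HeyC2 CEBPD was higher (1.86) while CEBPB (-0.53), NFKB1 (-0.50) and RELA (0.26) were within 1.5-fold and RELB was lower (-0.89). In SKOV3 CEBPA (1.62), CEBPB (0.59) and RELB (0.62) were higher, NFKB1 was lower (-1.70), and CEBPD (-0.39) and RELA (-0.25) were within 1.5-fold. IL1R1, the receptor of IL-1, was 3.83 and 74.8 TPM in SKOV3 (change 3.69).

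Of the acute-phase genes 4 passed the filter in HeyC2, with 2 lower and 1 higher, and 6 in SKOV3, with 1 lower and 3 higher, beside the same shares. The lower genes, SAA1 and SAA2 in HeyC2 and SAA1 in SKOV3, passed only through the control. Nothing is therefore read from these counts. SAA1, which encodes serum amyloid A, was 19.4 and 0.93 TPM in SKOV3 (change -3.68), an estimated 19 and 1 fragments. In HeyC2 it was 3.79 and 0 TPM (change -2.27) and passed the filter only through the control, with an estimated 4 and 0 fragments. The 0 allows up to 2.69 TPM and the interval of the relative ratio, 0 to 1.6, included 1, so a difference in SAA1 was not detectable in HeyC2 at this depth. In SKOV3 LCN2 (0.92), SERPINA3 (3.33) and HPX (1.70), genes of other acute-phase proteins, were higher. SERPINA3 was 0.846 and 21.6 TPM, an estimated 4 and 91 fragments, and HPX 0 and 2.94 TPM, an estimated 0 and 12. Both passed the filter only through the TET1 library, so nothing is read from these 2 calls. In HeyC2 SAA2 (-2.90, an estimated 9 and 0 fragments) was lower, having passed only through the control, and CP (0.67), the ferroxidase ceruloplasmin, was higher. Of the hepatocyte markers ALB, APOA1 and TTR, which would mark liver cells, none exceeded 2.71 TPM in any library.

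**Figure D5:**
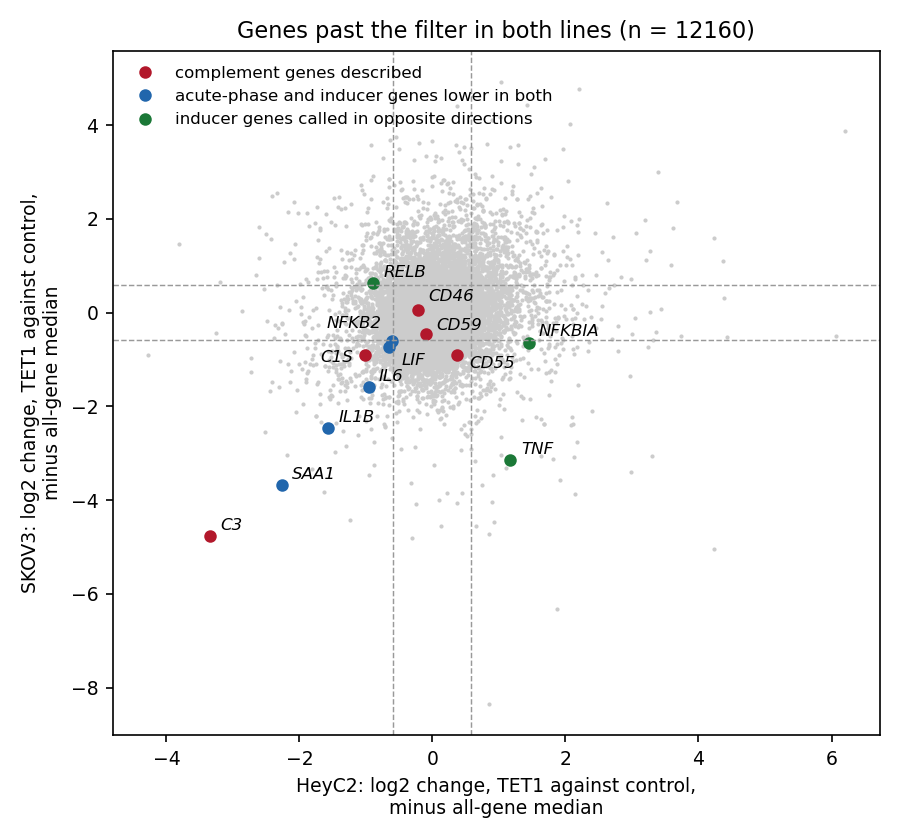
Log2 change in SKOV3 against that in HeyC2 (TET1 against control with 1 TPM added, minus each line's all-gene median) for the 12160 genes tested in both lines (grey), with the complement genes described in red, acute-phase and inducer genes past 1.5-fold below the median in both lines in blue, inducer genes on opposite sides in green and dashed lines at 1.5-fold. C3 lies at -3.34 and -4.77 in the lower left, followed by SAA1, whose HeyC2 value rests on an estimated 4 and 0 fragments, and IL1B, while CD46 and CD59 lie near the centre. In SKOV3 SAA1 and IL1B passed the filter only through the control.

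The genes whose level over the 4 libraries was most like that of C3 were sought among the other 12159 genes tested in both lines, by Euclidean distance between log2 profiles centred on their mean. The 5 nearest were SAA1 (distance 1.49), TSPYL5 (1.49), MMP1 (1.88), CTH (2.03) and FAM231D (2.08), against a median distance of 4.2. MMP1 encodes an interstitial collagenase and CTH an enzyme of cysteine synthesis. All 5 had values past 1.5-fold below the median in both lines, which follows from the choice of C3, and TSPYL5, at 3.52 and 0 TPM in HeyC2 and 5.75 and 0 TPM in SKOV3, was among the low ones in level. SAA1, TSPYL5, MMP1 and FAM231D were at 0 TPM in HeyC2 TET1 and passed the HeyC2 filter only through the control. TSPYL5 and FAM231D did so in SKOV3 as well, and SAA1 was under 1 TPM in SKOV3 TET1. With 4 libraries the order rests on little, and 2 of the 5 remained among the nearest when the deposited FPKM were used.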

How the data were processed

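RNA-seq was done on 4 libraries, 1 per condition. Per the labels, the authors prepared TruSeq libraries, sequenced paired ends on a HiSeq platform, aligned reads to hg19 with Bowtie2 2.2.6 and quantified FPKM with RSEM 1.2.17. The annotation is not given in the sources used here. The deposited FPKM of each TET1 library had been multiplied by a constant (3.23 in HeyC2, 1.35 in SKOV3) that sets GAPDH equal to its control. This was recovered from the value steps of 0.01 FPKM, and 99.5% and 99.4% of the low values checked lay on the grid.

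FPKM were rescaled to TPM, since the constant alters the effect of a pseudocount on low genes. Fragments were estimated from the value steps and transcript lengths. Genes with a mean of at least 1 TPM were kept, and 1.5-fold from the all-gene median was the limit. Gene positions came from GENCODE v44 on GRCh37 for 85.4% of symbols. Python 3.11.15 with scipy 1.17.1 was used, and steps were tested on simulated data. The 9 genes, the lists and the rule for named genes (all 9, list genes past the filter or limit, and the 5 nearest to C3) were chosen with earlier results of these data known. Alternatives varied scaling, centring, pseudocount, filter, fold and window. No p-value was computed, and 1 gene of the complement list is not reported here.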

Additional observations from a re-analysis of the deposited data

Results flagged for a closer look

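In 3 inducer genes the lines lay on opposite sides of the all-gene median by at least 1.5-fold, in 1 pair of libraries per line, and the difference between lines was not tested. RELB, an NF-kB subunit gene, was lower in HeyC2 (-0.89) and higher in SKOV3 (0.62). NFKBIA, which encodes the NF-kB inhibitor IκBα, was higher in HeyC2 (1.45) and lower in SKOV3 (-0.64). TNF, a cytokine gene, was higher in HeyC2 (1.17) and lower in SKOV3 (-3.15), where it rested on an estimated 49 and 2 fragments. At 9.52 and 0.44 TPM, TNF passed the SKOV3 filter only through the control.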

How the results depend on the processing

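Of 227 values recomputed under other settings, 197 stayed within the counting interval, within 1.5 times the count or, for windows, within 0.1 of the median, 30 moved and 0 called values reversed. C3 ranged from -3.69 to -3.32 in HeyC2 and from -5.18 to -4.49 in SKOV3, C1S from -2.06 to -1.001 in HeyC2, CFB from 1.598 to 1.88, CFI from 3.43 to 3.87 and SERPING1 from 1.05 to 3.02. With the FPKM as deposited, CD46, CD55 and CD59 in HeyC2 were -0.056, 0.515 and 0.047, C3 in SKOV3 was -4.51, and the genes around C3 in HeyC2 had a median of 0.052. C3 in SKOV3 was -4.74 with upper-quartile scaling, -4.49 without centring and -4.70 at a mean of at least 5 TPM. Without centring, SKOV3 gave CFB 1.88, CD46 0.34, CD55 -0.63, CD59 -0.18 and 1577 lower genes in all. In HeyC2, 1 of the 9 genes was lower with deposited FPKM and 1 at 5 TPM, since C1S then failed the filter, while the complement list had 3 lower with deposited FPKM, 1 lower at 5 TPM and 1 higher with no filter. At 2-fold, SKOV3 kept 1 of the 9 genes and 2 of the list as lower, and all genes gave 481 lower and 767 higher in HeyC2 and 1168 and 1847 in SKOV3. At 5 TPM 5 list genes were higher in SKOV3. With windows of 100 genes the SKOV3 medians were -0.065 around C1R, -0.055 around C1S, -0.063 around CFB and -0.39 around SERPING1. Of the 5 genes nearest to C3, 3 were shared with a pseudocount of 0.1 TPM and 2 with deposited FPKM. The cause was not tested where none is named. C1S in HeyC2 gave no value under either filter above, nor did SERPING1 where it fell under a stricter one.

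The all-gene median before centring was 1.61 in HeyC2 and 0.59 in SKOV3 with deposited FPKM. No paired analysis was possible because the labels give no replicate numbers and each condition has 1 library, and for the same reason no library could be left out. Depth limits C1R, CFB, CFI and SERPING1 in HeyC2 and SERPING1 in SKOV3, which rest on 10 or fewer estimated fragments in each library.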
